A study of Mus musculus with 10 samples.

Results

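The transcripts 2210418O10Rik (ENSMUSG00000078894) and AY036118 (ENSMUSG00000105361) were 2 of the 29527 genes measured in the pituitary intermediate lobe (IL), and both were among the 17268 genes abundant enough to be tested. They were chosen by their differences between genotypes in these same samples, so their levels and differences are given as a description and with no test. Bulk RNA was sequenced from dissected IL of 10 mice aged 2 to 3 months, 4 wild type (WT), 3 p27-/- and 3 p27-/-;Sox2+/-. p27-/- mice lack both working copies of Cdkn1b, which encodes the cell cycle inhibitor P27, in every cell, and p27-/-;Sox2+/- mice share that loss and also carry 1 rather than 2 working copies of Sox2, a stem cell transcription factor. The alleles were kept on a mixed genetic background, both sexes were used, and controls were littermates or animals of comparable background. All levels below are the deposited log2 values of normalized read counts, or, where said, 2 raised to those values, called the linear scale.

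The 2 genes differ in kind. 2210418O10Rik belongs to a large, tandemly repeated family of zinc finger genes on mouse chromosome 2. Proteins of such families often join a KRAB domain, which recruits the corepressor TRIM28 and silencing enzymes, to an array of zinc fingers that reads DNA, and the families expand and differ in copy number between mouse strains. AY036118 is a long non-coding transcript annotated next to a ribosomal RNA (rRNA)-like sequence on chromosome 17. Ribosomal RNA is the most abundant RNA of a cell, and short remnants of it can enter libraries made from total RNA in amounts that vary from one preparation to the next.

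By symbol, RefSeq places 2210418O10Rik on the plus strand of GRCm38.p6 at chr2:176226565-176261872, as a protein-coding gene of 35308 bases. Its neighbour Gm14296 lies at chr2:176892509-176927813 and is almost equally long, at 35305 bases. An older set of gene models (GENCODE M1, made on NCBIM37) puts the Ensembl gene of the same identifier on the minus strand, so whether the RefSeq locus and the counted gene model are the same copy could not be settled. AY036118 is placed on the minus strand at chr17:39848112-39898385 as a long non-coding RNA. The last 91 bases of this span, in its direction of transcription, overlap Rn18s-rs5, an 18S rRNA-like pseudogene at chr17:39846354-39848202. The reads were counted without regard to strand, so reads from the overlap cannot be told apart.

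The coding sequence of 2210418O10Rik is shown because it limits what its counts can mean. The first 300 coding bases of 2210418O10Rik (ENSMUST00000099009.2) and of Gm14296 (ENSMUST00000099007.2) did not differ at any base, so they are printed once. Gm14391, a further member of the cluster, differed at 12 of 300 bases (96% identity), which are in capitals.
2210418O10Rik and Gm14296: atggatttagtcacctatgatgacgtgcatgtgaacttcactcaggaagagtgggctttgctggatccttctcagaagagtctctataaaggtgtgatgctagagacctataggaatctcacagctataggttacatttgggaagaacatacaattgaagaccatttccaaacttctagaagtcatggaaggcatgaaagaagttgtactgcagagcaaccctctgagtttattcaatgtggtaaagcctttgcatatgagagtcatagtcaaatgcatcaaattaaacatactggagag
Gm14391: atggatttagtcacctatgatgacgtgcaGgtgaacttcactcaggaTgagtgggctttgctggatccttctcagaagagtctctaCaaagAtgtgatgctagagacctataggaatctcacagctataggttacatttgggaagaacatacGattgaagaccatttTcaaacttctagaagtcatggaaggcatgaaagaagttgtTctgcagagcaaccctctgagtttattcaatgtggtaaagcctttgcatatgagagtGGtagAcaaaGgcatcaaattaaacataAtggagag
The identity ran past this window. The whole 3823-base transcript of 2210418O10Rik was identical to the Gm14296 transcript, and a second transcript of 750 bases had an identical counterpart in Gm14296 as well. The 2210418O10Rik transcripts of 2314 and 195 bases had none. Of the 3932 different stretches of 75 bases in the 2210418O10Rik models, 3754 (95.47%) also occurred in Gm14296 and 3866 (98.32%) occurred in at least 1 other gene. The sharing was not mutual. The longer Gm14296 models held 8566 such stretches, of which 3754 (43.8%) were shared. With stretches of 50 and 100 bases, the share found in any other gene was 99.44% and 97.05%. A read that lies wholly in such a stretch fits several genes, and the counting program, RSEM, divides it among them by estimated abundance.

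Such sharing was rare among the genes compared, for which only protein-coding transcripts were used. Among the 13740 tested genes with a protein-coding transcript in the older models, 68 (0.495%) had at least 90% of their 75-base stretches in another gene, and the median gene had 0%. Sharing with pseudogenes and non-coding genes was not counted. Within 2 Mb of 2210418O10Rik the median was 74.9% over 28 genes, and 10 of those 28 reached 90%. They include Gm14308, Gm4724 and Gm14440, whose every stretch was found elsewhere.

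The deletions were checked first in the targeted genes. Cdkn1b was 8.54, 8.85, 8.39 and 8.66 in WT, 8.27, 8.04 and 8.22 in p27-/- and 8.10, 7.73 and 7.83 in p27-/-;Sox2+/-. Every mutant sample lay below every WT sample, and the difference passed the test in both mutants (log2 difference -0.43 ± 0.12 (SE), adjusted p = 0.047, and -0.72 ± 0.12, adjusted p = 0.0085, limma). Reads of Cdkn1b remained in the mutants, and a value per gene cannot show which part of the transcript they came from. Sox2 was 6.88 to 7.07 in p27-/-;Sox2+/-, below the 7.08 to 7.45 of p27-/- and the 7.34 to 7.75 of WT, but the difference from WT did not pass (-0.46 ± 0.13, adjusted p = 0.081). Marker genes of melanotrophs, the endocrine cells of the IL, had a summed log2 level of 18.11 to 19.08 across the 10 samples. The summed anterior lobe hormone genes, of which Prl and Gh were the most abundant, ranged from 12.48 to 17.70 and overlapped between genotypes, although Lhb and Fshb were called lower. 4 samples carried Y-linked Ddx3y at 8.69 to 8.81 with low Xist, and the other 6 had Ddx3y at 4.55 to 5.10, with both kinds in each genotype.

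2210418O10Rik separated WT from both mutants but not the mutants from each other. Its log2 level was 5.43, 5.47, 5.24 and 5.48 in WT, 7.26, 7.08 and 7.22 in p27-/- and 7.19, 7.0 and 7.20 in p27-/-;Sox2+/-. All 6 mutant samples lay above all 4 WT samples, a pattern shared by 664 of the 17268 tested genes (3.85%). The mean difference from WT was 1.79 in p27-/- and 1.73 in p27-/-;Sox2+/-, against a spread within genotypes of 0.11 (SD, n = 4), 0.09 (SD, n = 3) and 0.11 (SD, n = 3). On the linear scale the mean rose from 42.5 ± 3.19 (SD, n = 4) in WT to 146 ± 9.39 (SD, n = 3) and 141 ± 10.6 (SD, n = 3).

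By size, this difference ranked 10th of 17268 in p27-/- and 7th in p27-/-;Sox2+/-. The 2 mutants differed from each other by -0.06, less than the spread within either. In WT the gene stood above 22.3% to 25.5% of tested genes and in the mutants above 46.8% to 50.7%, so it sat near the middle of the table only in the mutants. Leaving out any 1 sample kept the difference at 1.73 to 1.84 in p27-/- and 1.67 to 1.79 in p27-/-;Sox2+/-. Samples with high and low Xist within a genotype were alike: WT samples 3 and 4 (low Xist) had 5.24 and 5.48, and samples 1 and 2 had 5.43 and 5.47.

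Some markers of other cell types also divided WT from mutants. Over all tested genes, 7.78% were called in p27-/- against WT and 2.71% in p27-/-;Sox2+/- against WT. Every mutant sample lay below every WT sample in 4.88% of tested genes. Lhb, a gonadotropin subunit gene of the anterior lobe, was 7.24 to 8.0 in WT and 5.64 to 7.18 in the 6 mutant samples, and was lower in p27-/- by 1.51 on the log2 scale (adjusted p = 0.0068, limma). Fshb, the other gonadotropin gene on the list, overlapped but was called in both mutants (-2.04, adjusted p = 0.028, and -2.27, adjusted p = 0.029), and Gh, Prl and Tshb were not called. Of 3 endothelial genes, Kdr was 7.03 to 7.29 in WT and 6.11 to 6.85 in the mutants and was called in both (-0.83, adjusted p = 0.0097, and -0.67, adjusted p = 0.046). The other two were not called, and Cdh5 differed by -0.39 in p27-/- but by 0.10 in p27-/-;Sox2+/-. Of the stem cell genes, Cdh1, which encodes E-cadherin, was called in p27-/- (-0.58, adjusted p = 0.013), and Sox9 (-0.17) and Sox2 (-0.17) were not.

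The summed endothelial genes, at 8.16 to 8.34 in WT, 7.5 to 7.98 in p27-/- and 7.78 to 8.13 in p27-/-;Sox2+/-, did not overlap between WT and the mutants. In WT, Kdr was the most abundant of the 3. Pecam1 overlapped, at 5.55 to 6.23 in WT, 5.58 to 5.93 in p27-/- and 5.37 to 5.97 in p27-/-;Sox2+/-. Cdh5 was 6.52 to 6.63 in WT, 6.01 to 6.30 in p27-/- and 6.56 to 6.83 in p27-/-;Sox2+/-. The endothelial sum therefore does not speak for all 3 genes. The summed stem cell genes, at 9.62 to 9.72 in WT, 9.25 to 9.46 in p27-/- and 9.32 to 9.57 in p27-/-;Sox2+/-, did not overlap either. Both sums were lower in every mutant sample than in every WT sample, as were 4.88% of single tested genes. Sums for the posterior lobe, blood, macrophages and fibroblasts overlapped. The other markers called were Pdgfra, a fibroblast gene, lower in p27-/- (-0.75, adjusted p = 0.046, limma), and Pcsk2, a melanotroph convertase gene, higher in p27-/- (0.53, adjusted p = 0.035). In bulk tissue, fewer cells of a type and less RNA per cell cannot be told apart, and the part of cell makeup in the 2210418O10Rik levels was not tested.

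**Figure D1:**
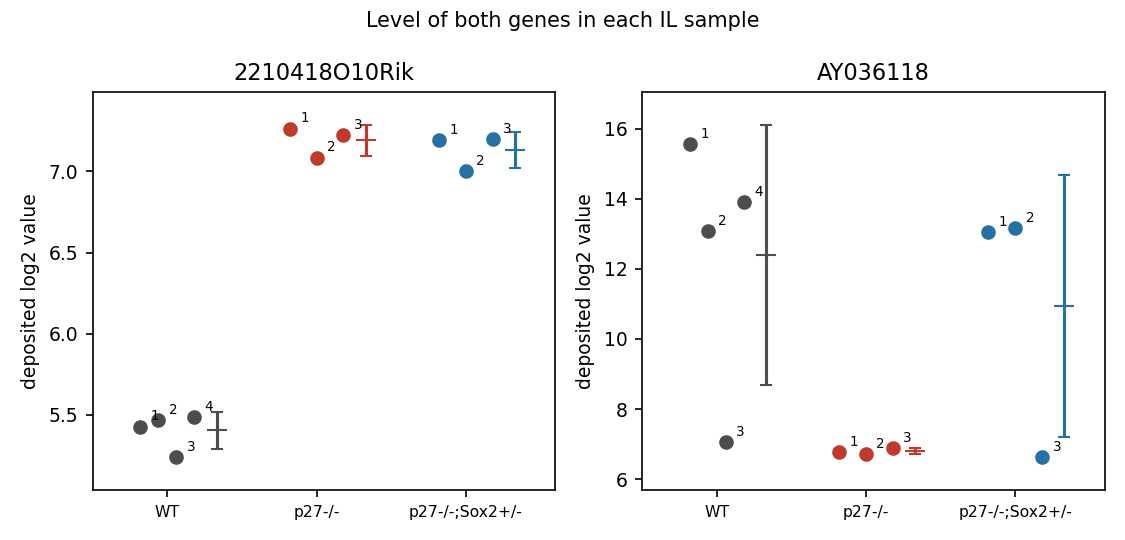
Deposited log2 value (vertical axis) of 2210418O10Rik and AY036118 in each sample, by genotype, with the replicate number beside each point and the mean ± SD to its right. For 2210418O10Rik the 6 mutant samples sit between 7.0 and 7.26 and the WT samples at or below 5.48, whereas AY036118 lies either near 7 or above 13 and the 2 levels occur together within WT and within p27-/-;Sox2+/-.

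AY036118 followed no such order. Its log2 level was 15.56, 13.07, 7.06 and 13.89 in WT, 6.76, 6.72 and 6.89 in p27-/- and 13.05, 13.16 and 6.63 in p27-/-;Sox2+/-. 5 samples, 3 WT and 2 p27-/-;Sox2+/-, lay between 13.05 and 15.56, and the other 5 lay between 6.63 and 7.06 with no sample in between. The empty interval of 5.99 was the 3rd widest among the 17268 tested genes. The 2 wider ones belonged to Gm15772 and Gm9000, each high in a single sample, and the next, 5.03, to Xist. 4 tested genes had an interval of at least 5, and 10 had one of at least 3.

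On the linear scale the range was wide. AY036118 was 48147, 8610, 133 and 15221 in WT, 109, 105 and 119 in p27-/- and 8466, 9181 and 99.1 in p27-/-;Sox2+/-. In WT sample 1 the gene made up 0.373% of the summed linear values of all genes and stood above 99.9% of tested genes, whereas in p27-/-;Sox2+/- sample 3 it made up 0.000779%. The AY036118 levels also did not fall along the Xist split. WT samples 3 and 4 both had low Xist, yet AY036118 was 7.06 in one and 13.89 in the other.

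The genotype means of AY036118 therefore rest on how many samples of each genotype were high. The mean difference was -5.60 for p27-/- against WT and 4.16 for p27-/-;Sox2+/- against p27-/-, each the largest of its comparison, and -1.45 for p27-/-;Sox2+/- against WT. The SD was 3.71 within WT (n = 4) and 3.74 within p27-/-;Sox2+/- (n = 3), the largest and the 2nd largest of all tested genes, but 0.09 within p27-/- (n = 3). Without p27-/-;Sox2+/- sample 3 the difference of p27-/-;Sox2+/- from WT turned to 0.71, and without WT sample 3 it was -3.23. Leaving out 1 sample moved the difference of p27-/- from WT between -7.38 and -4.55. No p27-/- sample was high, and WT sample 3 was as low as they were.

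Gm14296, which holds nearly all of the 2210418O10Rik sequence, differed in the opposite direction. Gm14296 was 9.17, 9.48, 9.51 and 9.26 in WT, 8.94, 8.81 and 8.99 in p27-/- and 8.97, 8.93 and 9.01 in p27-/-;Sox2+/-. All 6 mutant samples lay below all 4 WT samples, as they did in 4.88% of tested genes. Gm14296 fell in p27-/- by 0.44 ± 0.10 (SE) on the log2 scale (adjusted p = 0.018, limma) and differed from WT by -0.39 ± 0.10 in p27-/-;Sox2+/- (adjusted p = 0.052). In this comparison of p27-/- with WT, 1343 of 17268 tested genes were called at an adjusted p under 0.05 (7.78%). The p27-/- call was lost without any 1 of the p27-/- samples, with an adjusted p of 0.052, 0.085 and 0.050 without samples 1, 2 and 3, and the adjusted p ranged from 0.0066 to 0.085 over all alternatives.

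Because the deposited table divides shared reads between both genes, their linear values were also added, a choice made after the values were seen. The sum was 620, 757, 767 and 660 in WT, 646, 586 and 659 in p27-/- and 648, 615 and 663 in p27-/-;Sox2+/-. The genotypes overlapped in the sum, which averaged 701 ± 72.5 (SD, n = 4), 630 ± 39.1 (SD, n = 3) and 642 ± 24.5 (SD, n = 3). The log2 difference of the sum was -0.15 in p27-/- and -0.12 in p27-/-;Sox2+/-. These small differences say little about 2210418O10Rik itself, because it made up 4.93% to 6.94% of the sum in WT and the sum mostly follows Gm14296.

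The share of the sum listed under 2210418O10Rik rests on the same values that chose the gene. It was 4.93% to 6.94% in WT, 22.7% to 23.8% in p27-/- and 20.9% to 22.6% in p27-/-;Sox2+/-. In linear units 2210418O10Rik was higher by 104 in p27-/- and 98.1 in p27-/-;Sox2+/-, while the difference of Gm14296 was -175 and -157. Across the 10 samples the log2 values of both genes had a Pearson r of -0.891, a description over samples that form 2 clusters. The transformation behind the deposited log2 values is not named, so a sum of their linear values need not equal summed reads.

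A second pair in the cluster with shared sequence did not follow genotype. Gm14440 (chr2:175275125-175286805) and Gm14288 (chr2:175790548-175801038) are further members of the cluster, and all 3308 stretches of 75 bases of Gm14440 occurred in Gm14288. The pair was chosen after its values were seen, and other pairs in the cluster shared as much sequence. Gm14308 and Gm4724, for example, shared 99.8% of the stretches of the smaller gene. Over the 10 samples Gm14308 was 5.90 to 6.55 and Gm4724 4.65 to 5.48, and their sum was not taken. Gm14440 was 4.23, 4.15, 5.76 and 4.69 in WT, 4.19, 4.11 and 5.49 in p27-/- and 6.08, 6.02 and 4.08 in p27-/-;Sox2+/-. Gm14288 was 6.18, 6.52, 5.64 and 6.46 in WT, 6.22, 6.34 and 5.25 in p27-/- and 4.83, 4.82 and 6.61 in p27-/-;Sox2+/-.

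WT sample 3, p27-/- sample 3 and p27-/-;Sox2+/- samples 1 and 2 had the highest Gm14440 and the lowest Gm14288. The linear sum stayed between 82.9 and 115 across the 10 samples, while the share listed under Gm14440 ran from 14.7% to 70.4%. Pearson's r between both genes was -0.934 over the 10 samples. Neither gene passed the test in any of the 3 comparisons over all samples. Gm14440 differed from WT by -0.11 ± 0.49 (SE) in p27-/- (adjusted p = 0.92, limma) and by 0.68 ± 0.49 in p27-/-;Sox2+/- (adjusted p = 0.49). The latter was 0.34, 0.37 and 1.34 without p27-/-;Sox2+/- samples 1, 2 and 3. Gm14288 differed from WT by -0.78 ± 0.39 in p27-/-;Sox2+/- (adjusted p = 0.31), and by -1.37 without p27-/-;Sox2+/- sample 3 (adjusted p = 0.039, the smallest over its alternatives).

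**Figure D2:**
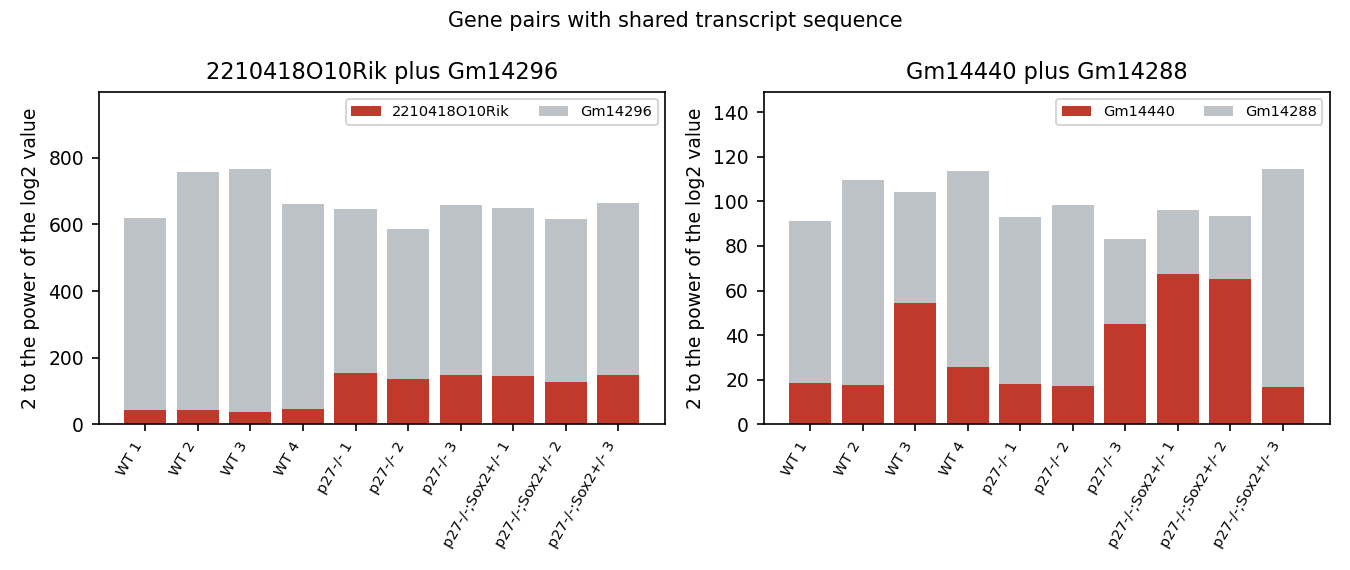
Linear values (2 to the power of the deposited log2 value) of 2 gene pairs with shared transcript sequence, stacked for each of the 10 samples. In the left panel the total stays between 586 and 767 while the red part listed under 2210418O10Rik is larger in the 6 mutant samples, and in the right panel the share of Gm14440 is large in 4 samples from all 3 genotypes.

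Whether other genes around 2210418O10Rik moved with it was asked next. Of 46 other genes within 2 Mb, 30 were tested. In p27-/- against WT, 4 of 30 were called, against 7.78% of all tested genes. 1 was higher (3.16% of all tested genes were) and 3 were lower (4.62%), and the median log2 difference was -0.06 against 0.01 over all tested genes. Ctsz, a lysosomal cathepsin, fell by 0.55 ± 0.12 (SE) on the log2 scale (adjusted p = 0.017, limma), and Phactr3, a regulator of protein phosphatase and actin, fell by 0.34 ± 0.09 (adjusted p = 0.039). Gnas, which encodes the stimulatory G protein alpha subunit, rose by 0.70 ± 0.20 (adjusted p = 0.047), and Gm14296 was the 4th. None of these 4 differed by as much as 2210418O10Rik, but that gene was chosen for the size of its difference, so this comparison shows nothing further.

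In p27-/-;Sox2+/- against WT, where 2.71% of tested genes were called, Ctsz alone passed of these 30 genes, and it fell by 0.53 ± 0.12 (SE) (adjusted p = 0.031, limma). Ctsz was 7.59 to 7.68 in WT, 6.91 to 7.36 in p27-/- and 6.98 to 7.25 in p27-/-;Sox2+/-, so the mutants did not overlap with WT. Between the mutants, where 0.145% of tested genes were called, 0 of 30 passed in limma and 3 had an unadjusted p under 0.05. Of the 10 near genes with at least 90% shared sequence, 0 were called in any comparison. Over all tested genes 8.49% were called in at least 1 comparison, so a count of 0 among 10 says little. The count of 4 genes called near 2210418O10Rik fell to 1 without p27-/- sample 2 or sample 3 and rose to 6 without WT sample 1 or p27-/-;Sox2+/- sample 3. It was 2 without WT sample 3, WT sample 4, p27-/- sample 1 or p27-/-;Sox2+/- sample 1 or 2.

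**Figure D3:**
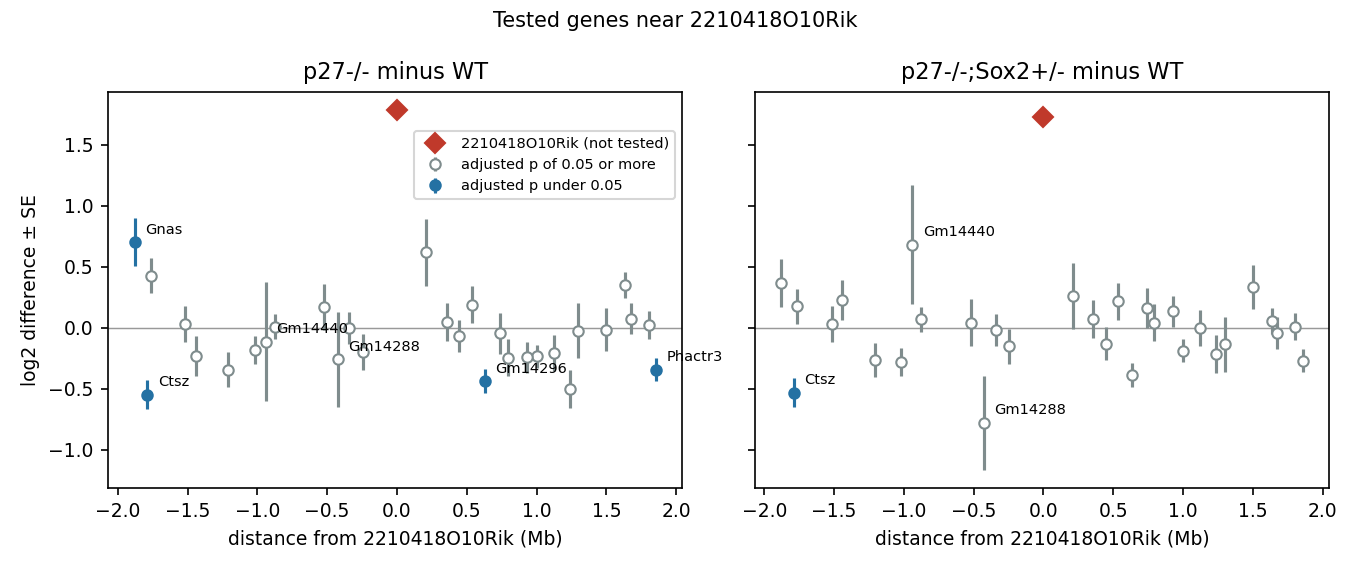
Log2 difference ± SE (vertical axis) of the 30 tested genes within 2 Mb of 2210418O10Rik against their distance from it in Mb, for p27-/- minus WT (left) and p27-/-;Sox2+/- minus WT (right), with 2210418O10Rik itself as a diamond at 0. Filled points have an adjusted p under 0.05 (4 on the left, 1 on the right), and the diamond, at 1.79 and 1.73, marks a gene chosen for its difference.

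Around AY036118 few genes could be tested. Of 7 other genes within 2 Mb, 2 were tested, and Crisp1, a secreted cysteine-rich protein best known from the epididymis, was called in both mutants. Crisp1 (chr17:40293758-40319207) lies 395 kb from AY036118. Its level was 6.68, 6.24, 6.0 and 5.90 in WT, 7.56, 7.60 and 7.90 in p27-/- and 7.11, 7.77 and 8.42 in p27-/-;Sox2+/-. All mutant samples lay above all WT samples, as they did in 3.85% of tested genes. Crisp1 rose by 1.49 in p27-/- (adjusted p = 0.0041, limma) and by 1.57 in p27-/-;Sox2+/- (adjusted p = 0.0065). In these comparisons 7.78% and 2.71% of all tested genes were called, and 2 tested genes are too few to set against those shares. Its adjusted p stayed at or below 0.029 and 0.041 over the alternatives. Crisp1 separated WT from both mutants, whereas AY036118 in the same samples did not. The second gene, Cenpq, a centromere protein gene, differed by 0.37 ± 0.15 (adjusted p = 0.14) in p27-/-.

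Since both mutants carry the same Cdkn1b allele, the genes near it were counted too. Within 5 Mb of Cdkn1b, 3 of 32 tested genes (9.38%) were called in p27-/- against WT, close to the 7.78% of all tested genes. All 3 were higher, as 3.16% of all tested genes were, and the median over the 32 was -0.07. They were Lmo3, a LIM-domain cofactor (0.52, adjusted p = 0.0097, limma), Gprc5a, an orphan receptor (0.55, adjusted p = 0.013), and Lockd, a non-coding transcript beside Cdkn1b (0.94, adjusted p = 0.017). Lmo3 and Gprc5a also passed in p27-/-;Sox2+/- (0.58, adjusted p = 0.010, and 0.76, adjusted p = 0.0052). The count rose to 5 without WT sample 1. Within 5 Mb of Sox2, 7 of 53 tested genes were called in at least 1 comparison, where 8.49% of all tested genes were. Sox2ot, the transcript that overlaps Sox2, fell in p27-/-;Sox2+/- by 0.97 (adjusted p = 0.0027). The count near Sox2 was 11 without WT sample 2, 4 without WT sample 4, and 3 and 2 without p27-/- samples 2 and 3.

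A list of rRNA-derived and other structural non-coding RNA genes, which also held Lars2, was set beside AY036118. It is called the rRNA list for short. Of its 12 genes, 5 were matched. Gm26917, a long non-coding transcript, was 12.76, 12.13, 11.90 and 12.03 in WT, 12.55, 12.96 and 12.98 in p27-/- and 12.65, 12.38 and 12.31 in p27-/-;Sox2+/-. It rose in p27-/- by 0.63 ± 0.18 (SE) on the log2 scale (adjusted p = 0.046, limma), opposite in sign to AY036118, and the adjusted p ranged from 0.0023 to 0.17 over the alternatives. The call was lost without any 1 of 8 samples and stood only without WT sample 1 or p27-/- sample 1.

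Lars2, the mitochondrial leucyl-tRNA synthetase gene, and Gm15564, a non-coding transcript, were highest in WT sample 1, which also had the highest AY036118. Lars2 was 15.96 there, against 14.90, 14.34 and 14.46 in the other WT samples, 15.07 to 15.29 in p27-/- and 15.15 to 15.27 in p27-/-;Sox2+/-. Gm15564 was 10.21 there, against 8.97, 8.72 and 8.79, 9.15 to 9.52 and 9.26 to 9.38. Neither passed the test in any comparison over all samples. Without WT sample 1, Lars2 was higher in p27-/- by 0.62 (adjusted p = 0.014, limma) and in p27-/-;Sox2+/- by 0.64 (adjusted p = 0.022), and Gm15564 by 0.55 (adjusted p = 0.0084) and 0.48 (adjusted p = 0.029).

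The mitochondrial rRNAs did not track AY036118. mt-Rnr1, the small mitochondrial rRNA, lay between 18.83 and 19.54 and mt-Rnr2, the large one, between 20.81 and 21.50 in the 10 samples. The largest mt-Rnr2 value, 21.50, was in WT sample 3, where AY036118 was low, and the largest mt-Rnr1 value was in WT sample 1, where it was high. RNA quality values were not analysed here, and the part of rRNA remnants in the AY036118 levels was not tested.

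**Figure D4:**
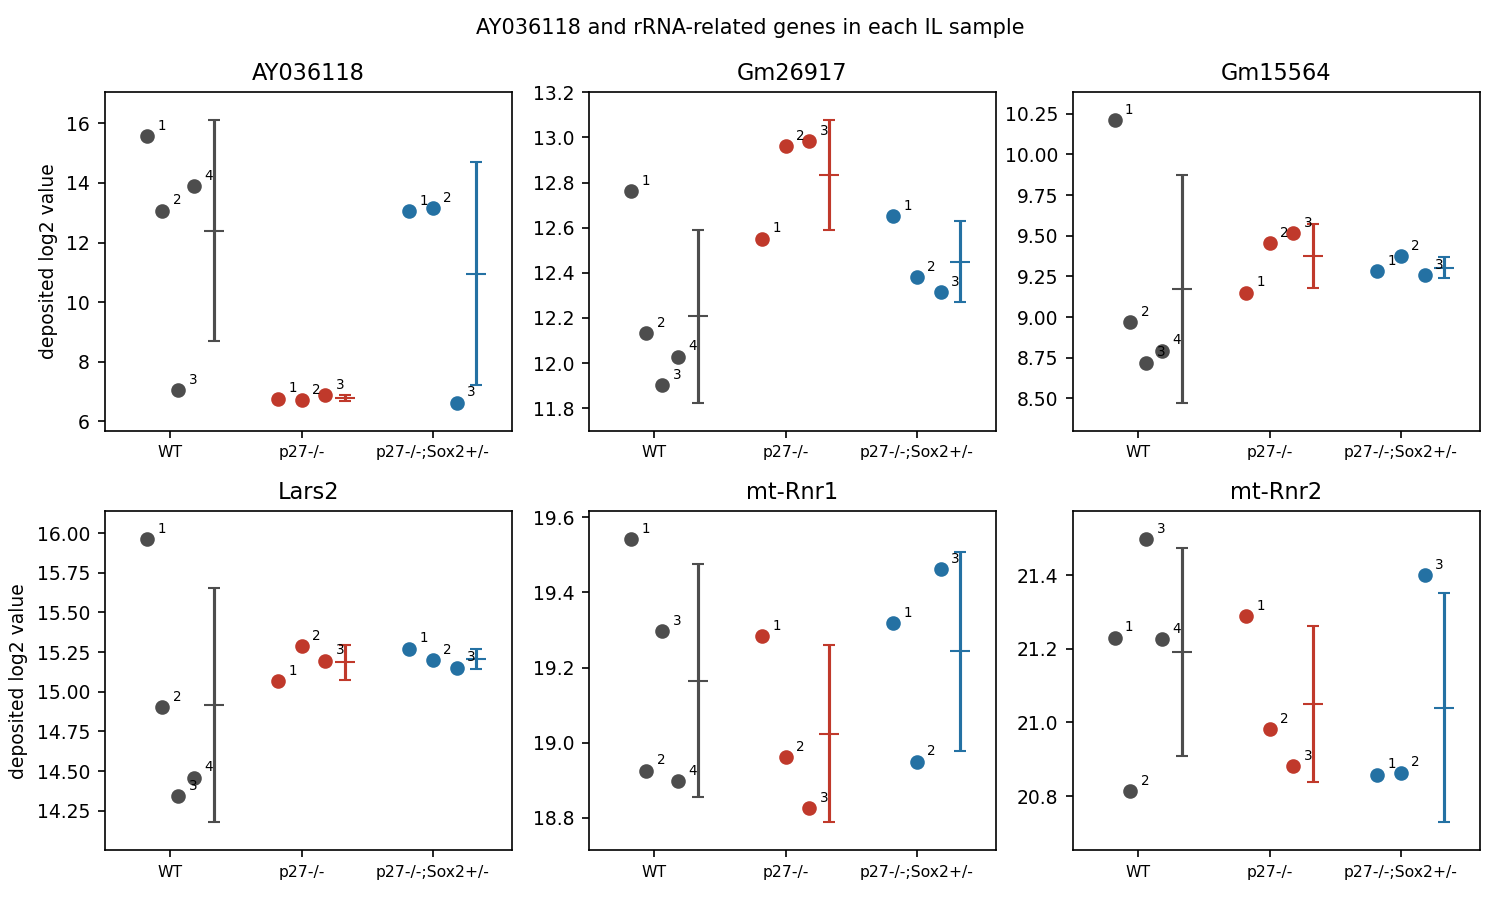
Deposited log2 values (vertical axes, each with its own scale) of AY036118 and of the 5 matched genes of the rRNA list in each sample by genotype, with replicate numbers and the mean ± SD. AY036118 spans 6.63 to 15.56, while Gm26917 spans 11.90 to 12.98 and Lars2 14.34 to 15.96, with WT sample 1 the highest for Lars2 and Gm15564.

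The machinery that makes rRNA was counted as a list. Of 21 tested genes of RNA polymerase I and rRNA processing, 3 (14.3%) were called in p27-/- against WT, where 7.78% of all tested genes were. All 3 were higher (3.16% of all tested genes), and the list's median was 0.19 against 0.01 over all tested genes. The count was 0 without p27-/- sample 3 and with replicate number as a block, and 1 without WT sample 3, WT sample 4 or p27-/- sample 1. The 3 were Nop56 and Nop58, core proteins of the snoRNPs that guide rRNA methylation, at 0.54 ± 0.12 (SE) (adjusted p = 0.018, limma) and 0.39 ± 0.09 (adjusted p = 0.023), and Rrn3, an initiation factor of polymerase I, at 0.32 ± 0.08 (adjusted p = 0.035). Nop56 was 10.25 to 10.64 in WT and 10.76 to 11.23 in the 6 mutant samples. In p27-/-;Sox2+/- against WT 0 of 21 passed in limma, with 3 at an unadjusted p under 0.05 and a median of 0.10. With 2.71% of all tested genes called in that comparison, a count of 0 among 21 says little.

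Cofactors of KRAB zinc finger proteins were counted beside 2210418O10Rik. Of 15 tested, 2 (13.3%) were called in p27-/-, where 7.78% of all tested genes were. Both were higher (3.16% of all tested genes), with a list median of 0.15. The count was 0 without WT sample 3, WT sample 4 or any 1 of the p27-/- samples and with replicate number as a block, and 1 without p27-/-;Sox2+/- sample 2. Cbx1 and Cbx3, heterochromatin proteins that bind methylated histone H3, rose by 0.52 ± 0.12 (SE) (adjusted p = 0.023, limma) and 0.39 ± 0.10 (adjusted p = 0.033). Trim28 itself was 8.89 to 9.04 in WT, 9.08 to 9.13 in p27-/- and 8.97 to 9.09 in p27-/-;Sox2+/-, and did not pass (0.16 ± 0.08, adjusted p = 0.25). In p27-/-;Sox2+/- 0 of 15 passed in limma, and 3 had an unadjusted p under 0.05. With 2.71% of all tested genes called in that comparison, a count of 0 among 15 says little.

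Zinc finger genes at large were counted as well. Of 317 tested genes with a Zfp symbol, 12 were called in p27-/- against WT, 7 higher and 5 lower (3.79% of them, against 7.78% of all tested genes). In p27-/-;Sox2+/- against WT, 3 were called (0.946%, against 2.71% of all tested genes). The count over the 3 comparisons, 12, was 6 without p27-/- sample 1 and 4 without p27-/- sample 3. Zfp92 rose by 0.54 ± 0.09 (SE) (adjusted p = 0.0033, limma) and Zfp238, a transcriptional repressor, by 0.49 ± 0.09 (adjusted p = 0.0055). Zfp521 and Zfp423, related regulators of cell fate, fell by 0.69 ± 0.12 (adjusted p = 0.0041) and 0.92 ± 0.16 (adjusted p = 0.0058). Zfp92 and Zfp423 passed in p27-/-;Sox2+/- as well, at 0.39 (adjusted p = 0.029) and -0.87 (adjusted p = 0.014).

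A short list of genes known to vary between inbred strains in copy number or expression was read alongside both genes. Of 7 tested, 1 was called, Entpd4, a Golgi nucleotidase, which fell in p27-/- by 0.36 ± 0.10 (SE) (adjusted p = 0.046, limma), in a comparison where 7.78% of all tested genes were called. Among fits without 1 sample, a gene of this list was called only without p27-/-;Sox2+/- sample 1 or 3, and none was called with median centring, in a fit of 2 genotypes, with no filter or with replicate number as a block. Entpd4 was 8.39 to 8.62 in WT, 8.03 to 8.19 in p27-/- and 8.28 to 8.57 in p27-/-;Sox2+/-. Pttg1, the securin gene, named after its values were seen, was 7.29, 8.21, 5.94 and 8.71 in WT, 7.87, 7.71 and 7.98 in p27-/- and 7.56, 6.07 and 6.19 in p27-/-;Sox2+/-, and the genotypes overlapped. WT sample 3 was the lowest for Pttg1 and 2210418O10Rik within WT and was the only WT sample with low AY036118. Its 2210418O10Rik value, 5.24, was close to the 5.43 to 5.48 of the other WT samples. Outside WT, Pttg1 did not follow AY036118. Pttg1 was 6.07 in p27-/-;Sox2+/- sample 2, where AY036118 was 13.16, and 7.71 to 7.98 in p27-/-, where AY036118 was low in every sample. Nnt, whose loss marks a common laboratory strain, lay between 8.51 and 8.86 in all 10 samples. Genotypes of the samples at strain-specific sites were not analysed here, and the part of genetic background in either gene's levels was not tested.

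Nuclear long non-coding RNAs stayed within a narrower range than AY036118. Of 6 tested, 0 were called in any of the 3 comparisons in limma, although 2, 1 and 2 had an unadjusted p under 0.05. With 7.78%, 2.71% and 0.145% of all tested genes called, a count of 0 among 6 says little. The count over the 3 comparisons was 2 with array weights or without WT sample 1, and 1 without WT sample 3 or with a mean of at least 50. Malat1, a nuclear speckle RNA, lay between 17.30 and 17.81 in the 10 samples, and Neat1, the scaffold of paraspeckles, between 9.89 and 10.87. Kcnq1ot1, an imprinted antisense transcript, was 12.65 to 13.30 in WT, 12.41 to 12.73 in p27-/- and 12.34 to 12.55 in p27-/-;Sox2+/-, with an adjusted p of 0.055 and 0.058.

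The genes most like 2210418O10Rik were found by Pearson's r over the 10 samples, which for this gene orders genes by how sharply they divide WT from mutants. The highest were Ppt2, a lysosomal thioesterase (r = 0.969), Ncapd3, a condensin subunit (0.967), Col19a1, a collagen (0.966), Rgmb, a BMP co-receptor (0.965), and Stil, a centriole duplication factor (0.964). Stil was 4.64 to 4.81 in WT, 5.50 to 5.74 in p27-/- and 5.34 to 5.52 in p27-/-;Sox2+/-. The most opposite was Skap2, an adaptor of Src kinases (r = -0.988), at 7.14 to 7.38 in WT, 6.26 to 6.40 in p27-/- and 6.37 to 6.53 in p27-/-;Sox2+/-. ENSMUSG00000109044 and Gm15810 (each r = -0.971), Gm10419 and Slc35f3 (each -0.968) came next. Gm10419 had the largest of these differences, from 6.31 to 6.65 in WT to 5.09 to 5.22 in p27-/- and 5.12 to 5.44 in p27-/-;Sox2+/-.

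For AY036118 the same measure found genes of far smaller range. The highest were Shkbp1 (r = 0.943), Ptpru, a receptor tyrosine phosphatase (0.937), Klhl33 (0.936), Adamts10, a secreted metalloprotease (0.923), and Acad10, an acyl-CoA dehydrogenase (0.913). Shkbp1 was 6.36, 6.35, 6.06 and 6.36 in WT, 6.12, 6.04 and 6.16 in p27-/- and 6.41, 6.40 and 6.10 in p27-/-;Sox2+/-. The most opposite were Ikbip (-0.943), ENSMUSG00000042901 (-0.941), Gm14276 (-0.923), 1110002N22Rik (-0.915) and Ywhaz, a 14-3-3 protein (-0.912). Ikbip was 8.51, 8.58, 8.77 and 8.58 in WT, 8.72, 8.72 and 8.74 in p27-/- and 8.58, 8.49 and 8.79 in p27-/-;Sox2+/-. These values of r are over 10 samples in 2 clusters, are the extremes of 17268 and carry no test. No gene among these 10 spanned more than 1 on the log2 scale, where AY036118 spanned 8.92.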

How the data were processed

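Bulk RNA of dissected IL was extracted, amplified and sequenced by the authors from 4 WT, 3 p27-/- and 3 p27-/-;Sox2+/- mice. Per the study's methods, reads were aligned with STAR 2.5.2a to the Ensembl 89 transcriptome of GRCm38, counted per gene with RSEM 1.3.30 at a forward probability of 0.5, that is without strand, and normalized with DESeq2 1.18.1. The authors deposited log2 values for 29527 genes. The transformation is not given in the sources used here, and the lowest value is -1.89, so the values were tested as they are. The table does not give read depth, and precision is limited by how many mice there were.

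Groups follow the labelled genotypes. A gene was tested if the mean of its log2 values reached 3.32, the log2 of 10 (17268 genes). A stricter filter, called a mean of at least 50, used the log2 of 50 in the same way. The test was limma 3.58.1 in R 4.3.3 (eBayes with trend) in 1 fit of all samples, for 3 comparisons. Benjamini-Hochberg adjustment ran over all tested genes, with a threshold of 0.05. The fit was checked on simulated data. The labels do not say that samples came from separate litters, so p-values measure the spread between these samples. Both genes and all lists were chosen with earlier results of these data known. Genes were named by rule: members of the rRNA list, the targeted genes, up to 10 called genes near each of both genes, the 5 highest and 5 lowest by r, and up to 4 genes per other list. Values named after they were seen are marked as such.

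Gene names came from identifiers, 277 of them from the study's supplementary tables, and 15129 of the tested genes had a symbol. Positions are those of RefSeq on GRCm38.p6, matched by symbol. Protein-coding transcripts of GENCODE M1 (NCBIM37) were matched by Ensembl identifier and compared in stretches of 75 bases, with 50 and 100 as alternatives, using Python 3.11.15, numpy 2.4.6, pandas 2.3.3 and matplotlib 3.10.9. Gm42418, Rn45s and 5 further transcripts of the rRNA list could not be matched and were not analysed here. Other settings tried were median centring, quantile normalization, no trend, array weights, Xist as a covariate, other filters, a fit of 2 genotypes at a time, replicate number as a block, other window sizes and leaving out each sample.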

Additional observations from a re-analysis of the deposited data

Results flagged for a closer look

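Within the 4 WT samples, 4 of the 38 measures examined had a sample that stood apart from the other 3. About 1.9 would do so by chance if the measures were unrelated and not chosen by their values. Shkbp1 and Col19a1 were chosen by their r with AY036118 and 2210418O10Rik in these samples, so these counts cannot be compared. Gap divided by range came to 0.833 for Gm15564, which was 10.21 in WT sample 1 and 8.719 to 8.969 in the others. It was 0.889 for Col19a1, which was 6.299 in WT sample 2 and 6.144 to 6.162 in the others. Shkbp1 had a ratio of 0.95, with 6.059 in WT sample 3 against 6.348 to 6.363. Sox2 had a ratio of 0.885, with 7.755 in WT sample 3 against 7.339 to 7.387. AY036118, which was also low in WT sample 3, was not among them.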

How the results depend on the processing

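The differences of 2210418O10Rik and AY036118 between genotypes kept their direction under median centring, quantile normalization and the replicate block. For 2210418O10Rik these gave 1.80 to 1.84 in p27-/- and 1.74 to 1.77 in p27-/-;Sox2+/-, and for AY036118 -5.59 to -5.10 and -1.44 to -0.95. Leaving out 1 sample gave 1.73 to 1.84 and 1.67 to 1.79 for 2210418O10Rik and -7.38 to -4.55 and -3.23 to 0.71 for AY036118. Between the mutants it gave -0.11 to 0.0053 for 2210418O10Rik and 3.05 to 6.32 for AY036118.

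Counts of called genes depended on the fit, and the cause was not tested. For p27-/- against WT (1343 genes) they were 807 in a fit of 2 genotypes, 831 with no filter, 595 with the replicate block and 403 to 1709 without 1 sample. For p27-/-;Sox2+/- against WT (468) they were 1240 with array weights, 260 in the fit of 2 genotypes, 209 with the block and 80 to 658 without 1 sample. Between the mutants (25) they were 283 with array weights, 45 in the fit of 2 genotypes, 6 with no filter, 8 with no trend, 15 with quantile normalization, 2 with the block and 0 to 41 without 1 sample.

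Near 2210418O10Rik (4 genes) 2 were called with Xist as covariate, in the fit of 2 genotypes, with no filter and with the block, 1 within 1 Mb, 7 within 5 Mb, and 1 to 6 without 1 sample. Near AY036118 (1) there were 4 within 5 Mb. Near Sox2 (7) there were 4 in the fit of 2 genotypes and with the block, and 2 to 11 without 1 sample, and near Cdkn1b (3) 2 to 5. The rRNA list (1) had 0 with Xist as covariate, in the fit of 2 genotypes, with no filter, no trend, quantile normalization or the block, and 0 to 3 without 1 sample. The polymerase I list (3) had 0 with the block and 0 to 3 without 1 sample. The corepressor list (2) had 1 in the fit of 2 genotypes and with no filter, 0 with the block, and 0 to 2 without 1 sample. The strain list (1) had 2 with array weights, 0 in the fit of 2 genotypes, with median centring, no filter or the block, and 0 to 1 without 1 sample. The nuclear RNA list (0) had 2 with array weights, 1 with a mean of at least 50, and 0 to 2 without 1 sample. The Zfp genes (12) had 19 with array weights, 5 with the block and 4 to 17 without 1 sample.

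Replicate numbers were shared by the genotypes, but samples with the same number did not deviate together (1 of 9 correlations over 0.1, from -0.24 to 0.18), so the block is not a pairing of animals. Adding Gm42418 to AY036118 was not run, because Gm42418 was not matched. No result reversed a called direction.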
